A study of Bos taurus with 48 samples.

Results

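The collagens described here are the products of 10 bovine genes, COL1A1, COL1A2, COL3A1, COL5A1, COL5A2, COL12A1, COL6A1, COL6A3, COL4A1 and COL4A2. They were found on a two-colour oligonucleotide microarray as every probe whose gene name, or whose symbol in the probe description, was one of these names. This gave 11 probes of 21475 on the array, 2 of them for COL1A2. After a filter on dim probes, 9 of the 10 genes were among the 14673 genes tested, and COL4A1 was not measured. The genes were chosen by their measured levels over age and diet in these same arrays, so their differences between ages and between diets are given below as a description, without p-values. Where they are counted against the threshold of the fit over all genes, the count describes that fit and is no independent test of genes chosen on the same values. Which values chose the genes is stated no more exactly than this, and differences between the crosses, which the rule does not name, were treated as independent of it and tested.

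Samples came from the longissimus (LTL) muscle of cattle. In the developmental experiment, Piedmontese × Hereford and Wagyu × Hereford animals, which share the Hereford side of the cross, were compared on 3 arrays at each of 4 early points (60, 135 and 195 days in utero, and birth) and on 4 arrays each at 3, 7, 12, 20, 25 and 30 months. In the diet experiment, adult Belmont Red animals on a restricted ration (weight loss) were compared with animals on a growth ration at times 0, 1 and 2, on 4 arrays each. The experiment spanned deprivation and re-alimentation, and the labels do not say how the 3 times relate to either. Each array carried 1 animal of either cross or diet in either dye, giving 96 channels from 35 animals in 26 conditions. Repeats of an animal were averaged, which left 1 animal of each cross at 60 days, 2 Wagyu-cross animals at 135 days and at 12 months, 2 Piedmontese-cross samples at 195 days (GP041A and GP041B, counted as 2 animals although their codes may mark 1), 3 restricted animals at diet time 1 and 2 animals of each diet at diet time 2.

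Collagens are secreted proteins in which 3 chains wind into a triple helix. Types I, III and V assemble into the fibrils of the endomysium, perimysium and epimysium, the connective tissue sheaths of muscle, and are made chiefly by fibroblasts. Type XII lies on the surface of those fibrils. Type VI forms beaded filaments next to the basement membrane, and type IV is the network collagen of the basement membrane that surrounds each muscle fibre and capillary. Before secretion the chains are hydroxylated and folded in the endoplasmic reticulum, and after secretion their propeptides are removed and the fibrils are cross-linked by lysyl oxidases. In RefSeq (assembly ARS-UCD2.0), COL3A1 is listed beside COL5A2, and COL4A1 beside COL4A2.

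All 11 probes were 60 bases long, with a GC content of 35% to 60%. Stretches of 6 probes are given. COL1A1, COL3A1 and COL4A2 are the genes described most fully, COL1A2 was represented by a bright and a dim probe, and the COL4A1 probe was dim. They are read 5′ to 3′ from the array's own probe table, and capitals mark the hexamers AATAAA and ATTAAA, which are polyadenylation signals at the ends of many transcripts.
COL1A1, bases 1 to 30: catctctcaaacttagtttttatctttgac
COL1A2, bright probe, bases 1 to 30: tggcaaaagaggagaaggattgatcagagc
COL1A2, dim probe, bases 1 to 30: ggtttttcactgtggtgaacgtctatgagg
COL3A1, bases 15 to 44: gaatgtgttgaaATTAAActctgtaagctt
COL4A2, bases 1 to 60: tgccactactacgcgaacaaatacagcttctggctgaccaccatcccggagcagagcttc
COL4A1, bases 1 to 30: tcttaaaattcaaatttgtAATAAAactat

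The hexamer AATAAA occurred as written in 1 of the 11 collagen probes, that for COL4A1, and in 11.8% of all probes on the array (15.2% on either strand). ATTAAA occurred in the probes for COL3A1 and COL6A3, and in 4.00% of all probes (6.47% on either strand). Of the 11 probes, 9 were well above background in all 96 channels and none was saturated. The COL4A1 probe was well above background in only 7 channels, of which 2 were at 135 days, 4 at 3 months and 1 at 25 months, so no level is given for this gene. The second COL1A2 probe was above background in 4 channels and was left out, and COL1A2 below refers to the bright probe alone. Since the brightness of a spot depends on its probe, levels are compared between samples and never between genes.

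Over the whole set of arrays, the share of spots well above background was 49.9% to 72.8% in Cy3 and 55.1% to 76.4% in Cy5. A few animals stood apart in the genes that mark cell types. The 60-day animals GP663 and GW911 had the highest summed signal of the cartilage markers, at 15.3 and 14.4 on the log2 scale. Animal GP672 at 135 days had the highest adipocyte sum before birth, 16.9, and the lowest myofibre sum, 13.6, where the other prenatal animals had myofibre sums of 17.4 to 19.8. At diet time 1 the growth animals RG166 and RG208 had the highest myofibre sums, 21.2 and 21.0. Of the 8 myofibre markers 7 (among them CKM, ACTA1 and MB) were measured. GP672 stood apart from the other foetal muscle samples in these markers. Values without it are given for some collagens, from prenatal to post-natal animals and between the crosses before and at birth. The levels at 135 days, the correlations, and the other genes and markers compared from prenatal to post-natal animals are given with it only.

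Expression is given throughout as log2 normalised intensity, and a difference of 1 is a 2-fold difference. In the developmental experiment the fibrillar collagens were high in the foetus and much lower from birth onwards. Some adults of the diet experiment, on other slides, had COL1A1 as high as the foetus, where it was 15.52 to 16.43. RG157, RG208 and RL27 stood at 16.22, 16.26 and 16.30 at diet time 0, and RG604 at 16.52 at time 1. The highest COL3A1 value of the diet animals was 14.42 (RG157, time 1), below every foetus. The COL1A1 level, which reports a chain of type I collagen, was 16.06 and 16.28 in the 2 animals at 60 days. At 135 days COL1A1 measured 15.52, 16.35, 16.34, 16.43 and 15.91 in the 5 animals, and at 195 days 15.75, 15.64, 15.97, 16.17 and 16.16. At birth COL1A1 ranged from 12.71 to 14.29 over 6 animals, with a median of 13.49. The 3 foetal ages overlapped, and every newborn lay below every foetus.

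COL3A1, the chain of type III collagen, had the same shape. Its levels were 16.18 and 15.75 at 60 days and 16.30, 16.72, 16.04, 15.67 and 16.00 at 135 days. At 195 days COL3A1 measured 15.40, 15.21, 15.27, 16.50 and 15.97, and at birth it ran from 12.11 to 12.99 (median 12.62, 6 animals). No newborn reached the lowest foetal value.

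From 195 days to birth all 9 collagens were lower, with a median difference of -1.76, and the animals of the 2 ages did not overlap for 7 of them, against 22.9% of all genes. COL3A1 differed by -3.11 (SE 0.29, 5 and 6 animals), which is 8.64-fold. COL1A2, the second chain of type I collagen, was 8.35-fold lower (SE of the log2 difference 0.19) and COL1A1 5.31-fold lower (SE 0.27). The type V chains, which help set the width of fibrils, differed by -2.12 (SE 0.19, COL5A2) and -1.76 (SE 0.14, COL5A1). COL12A1 differed by -1.42 (SE 0.28) and COL6A3 by -1.34 (SE 0.17). COL4A2 and COL6A1 were lower by less, at -0.69 (SE 0.19) and -0.47 (SE 0.15), and their animals overlapped between the ages. Both ages were on each of the same 3 slides, and within slides the COL3A1 difference ran from -3.37 to -2.62 and the COL1A1 difference from -2.82 to -2.08.

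Within gestation the collagens differed from each other. COL12A1 was 15.86 and 15.75 at 60 days, then 14.71, 13.11, 14.34, 15.57 and 14.30 at 135 days. By 195 days it was 11.67, 12.18, 12.13, 12.90 and 12.13. The lowest value at 135 days, 13.11, was that of GP672, which also had the highest COL4A2 and COL3A1 values of that age. The COL12A1 means were ordered 60 days, 135 days, 195 days and birth, each step larger than the larger of the 2 standard deviations. Between 60 and 195 days COL12A1 was 12.2-fold lower (log2 difference -3.60, SE 0.20, 2 and 5 animals). COL5A2 differed by -2.10, COL1A2 by -0.99 and COL5A1 by -0.98 over the same interval, again with no overlap between animals. Genes whose animals did not overlap and were lower at 195 days made up 27% of all genes.

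The basement membrane chain COL4A2 ran the other way. Its level was 9.83 and 10.06 at 60 days and 9.74, 11.10, 10.47, 9.93 and 10.50 at 135 days. At 195 days COL4A2 measured 10.95, 11.22, 10.49, 10.50 and 10.74, above both 60-day animals (difference 0.84, SE 0.18), where 32.5% of all genes were higher without overlap. COL6A1 was also higher at 195 than at 60 days, by 0.41, but its animals overlapped. The 60-day group held 1 animal of each cross, so its spread rests on 2 animals.

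**Figure D1:**
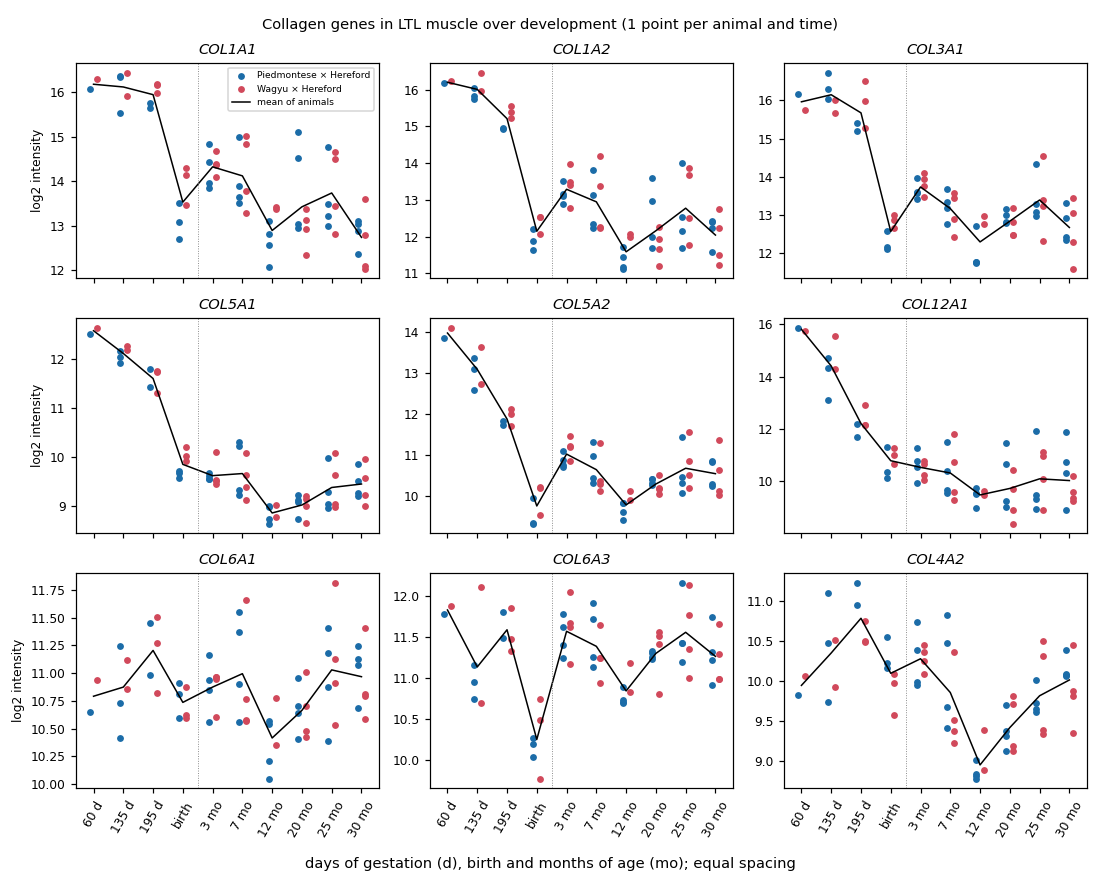
Log2 normalised intensity of the 9 measured collagen genes at each of the 10 developmental time points, 1 panel per gene with its own vertical scale. Points are animals, coloured by cross, and the line joins the means, so that the drop of COL1A1 from 15.94 at 195 days to 13.53 at birth and the decline of COL12A1 from 15.81 at 60 days to 10.78 at birth can be seen. The COL6A1 means stay between 10.41 and 11.20.

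After birth the levels moved less. From birth to 3 months 7 collagens were higher and 4 of them did not overlap (background 8.23% of all genes). These were COL6A3 (1.32, SE 0.17), COL5A2 (1.26, SE 0.19), COL3A1 (1.17, SE 0.17) and COL1A2 (1.14, SE 0.20). COL1A1 was higher by 0.79 (SE 0.27) with overlapping animals, and COL5A1 and COL12A1 differed by -0.23 and -0.25. Newborns and 3-month animals had no slide in common, so slide and age cannot be told apart here.

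Each of the 9 collagens was lower at 12 than at 3 months, with a median difference of -1.24 and no overlap for 7 of them, where 3.83% of all genes were lower without overlap. COL1A2 differed by -1.70, COL3A1 by -1.44, COL1A1 by -1.43 and COL4A2 by -1.32. All 9 were then higher at 20 than at 12 months (median 0.47) and higher again at 25 months (median 0.37), with overlapping animals in every case. No slide held both 20- and 25-month animals, or both 3- and 30-month animals, so slide and age cannot be told apart in those comparisons. At 30 months 8 of the 9 stood below their 3-month level and 2 did so without overlap, against 3.42% of all genes. The post-natal ages share most of the same 9 animals and are not independent of each other.

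Ordered by level, the ages separated most clearly for COL12A1, COL5A1 and COL5A2, whose means at 60, 135 and 195 days each differed by more than the larger of the 2 standard deviations. For COL1A1 and COL3A1 the 3 foetal ages were not separated in this way, and the only gap between neighbours lay between 195 days and 3 months. COL1A2 had gaps between 135 and 195 days and between 195 days and 3 months. COL4A2 had 1 gap, between 20 and 12 months, and COL6A3 had gaps between 60 and 195 days and between 12 months and birth. For COL6A1 no neighbouring ages were separated in this way.

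With each animal averaged over its ages and the newborns left out, the 9 post-natal animals were compared with the 12 prenatal animals. All 9 collagens were lower. In the fit over all genes 7 were past the threshold in that direction, as were 36.2% of all genes, and 6 did not overlap, against 20% of all genes. As the genes were chosen for such differences, nothing is read from these counts. The largest was COL12A1, at 13.72 ± 1.55 before birth and 10.16 ± 0.66 after (SD), a difference of -3.56 (SE 0.53). COL1A2 differed by -3.09 (SE 0.22), COL3A1 by -2.85 (SE 0.17), COL5A1 by -2.55 (SE 0.17), COL1A1 by -2.36 (SE 0.18) and COL5A2 by -2.17 (SE 0.29). COL4A2 was lower by 0.65 (SE 0.18). The type VI chains hardly differed, COL6A1 by -0.10 (SE 0.14) and COL6A3 by -0.07 (SE 0.16). Without GP672 the COL12A1 difference was -3.62 and the COL3A1 difference -2.78, and without the 60-day animals COL12A1 was at -3.14 and COL6A3 at 0.01. Prenatal and post-natal samples were hybridised on different slides, so slide and stage cannot be told apart.

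The genes that make, process, bind and degrade collagen were not among the 10 chosen genes and were tested with limma, with p-values adjusted over all 14673 genes. Their lists, like those of the cell type markers, were chosen with earlier results of these data known. The tests are therefore not independent of these data. In this comparison 36.2% of all genes fell and 38.9% rose, and 75 of the 90 genes of the 7 lists (83.3%) passed in either direction, against 75.1% of all genes. Counts for the lists are to be read against those shares. Of 17 genes for procollagen modification and folding in the cell, 14 fell after birth and none rose (median difference -1.32, against 0.02 over all genes). FKBP10, a prolyl isomerase chaperone of procollagen, was 10.6-fold lower (log2 difference -3.40, SE 0.27, adjusted p = 2.57e-10). SERPINH1, the collagen chaperone HSP47, fell by 2.46 (SE 0.19, adjusted p = 2.1e-10). PLOD1, a lysyl hydroxylase, fell by 2.27, and COLGALT1, which adds galactose to hydroxylysine, fell by 2.13.

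Outside the cell, 8 of 12 genes for processing and cross-linking fell and 2 rose. The lysyl oxidases LOX and LOXL2, which cross-link fibrils, differed by -2.40 (SE 0.29, adjusted p = 1.7e-07) and -2.38 (SE 0.17, adjusted p = 4.19e-11), and fibronectin (FN1) fell by 2.35. Their relative LOXL4 rose by 1.19 (SE 0.12, adjusted p = 7.61e-09), and PCOLCE2, an enhancer of procollagen C-propeptide cleavage, rose by 1.65 (SE 0.29, adjusted p = 2.79e-05). Among 19 other collagens 15 fell, led by COL16A1 (-4.20), COL11A1 (-4.01), COL27A1 (-3.92) and COL18A1 (-3.78), while COL4A3 (0.77) and COL6A2 (0.61) rose.

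All 6 measured collagen receptors fell, among them the endocytic receptor MRC2 (-2.40, SE 0.13, adjusted p = 4.69e-13) and the integrin chain ITGA11 (-1.19). Of 10 collagen-degrading proteases and their inhibitors 8 fell, among them the fibroblast protease FAP (-3.39) and the gelatinase MMP2 (-1.90), and the metalloproteinase inhibitor TIMP4 (1.12) and the gelatinase MMP9 (0.20) rose. Of 11 basement membrane partners 6 fell and 2 rose. Those that fell included PXDN (-2.62), the peroxidase that cross-links type IV collagen, and the laminin chains LAMB1 (-2.48) and LAMA4 (-2.42). Of 15 TGF-beta and related signals 8 fell and 2 rose, with a median of -0.21. TGFBI (-2.00) and the ligands TGFB3 (-1.38) and TGFB2 (-0.70) fell. The shares passing in either direction for these last 2 lists, 8 of 11 and 10 of 15, were no higher than that of all genes. Only genes that fell are named from these 2 lists.

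Markers of cell types moved as well, where 36.2% of all genes fell and 38.9% rose. All 8 fibroblast markers fell, and their summed signal was 15.8 to 17.4 before birth and 14.2 to 14.7 after. All 3 measured cartilage markers fell (10.1 to 15.3 before birth, 8.92 to 9.75 after) and all 3 red cell markers fell, 4 endothelial markers fell and 1 rose of 7, and 3 smooth muscle markers fell and 1 rose of 6. Of the others, 3 of 7 myofibre, 2 of 4 adipocyte and 4 of 5 immune markers rose and none fell. Their part in the collagen differences was not tested, and in bulk tissue fewer cells of a type cannot be told apart from less RNA per cell.

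The diet experiment held the largest collagen differences between animals of 1 time point. The labels give no age for these adults. At time 1, COL1A1 was 15.01, 13.52, 13.22 and 16.52 in the 4 growth animals RG157, RG166, RG208 and RG604. In the 3 restricted animals RL24, RL27 and RL671 it was 9.40, 10.19 and 11.41. COL3A1 was 14.42, 13.45, 13.27 and 14.34 in the growth animals and 9.27, 8.98 and 10.02 in the restricted ones. For both genes all restricted animals lay below all growth animals.

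COL3A1 was 21.8-fold lower in restricted animals (log2 difference -4.44, SE 0.36), COL1A1 18.9-fold lower (-4.24, SE 0.84) and COL1A2 15.2-fold lower (-3.92, SE 0.76). COL1A2 stood at 13.50, 12.76, 12.08 and 15.48 in the growth animals and at 9.02, 9.29 and 10.30 in the restricted ones. COL5A2 differed by -1.79 (SE 0.35), COL6A3 by -1.75 (SE 0.34), COL5A1 by -0.91 (SE 0.27) and COL6A1 by -0.56 (SE 0.17), all without overlap.

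The basement membrane chain COL4A2 was also lower. It was 9.58, 10.10, 9.69 and 10.65 in the growth animals and 8.39, 8.40 and 8.36 in the restricted ones, a difference of -1.62 (SE 0.25) or 3.07-fold. The 3 restricted values lay close together. COL12A1 was the exception, with 10.68, 9.95, 9.81 and 13.78 in the growth animals and 9.27, 10.32 and 11.41 in the restricted ones. The COL12A1 groups overlapped, and its difference of -0.72 (SE 0.99) rested on RG604, without which it was 0.19.

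In the fit over all genes 6 of the 9 collagens were past the threshold in the lower direction, as were 7.27% of all genes, and 8 did not overlap, against 14.9% of all genes. The genes were chosen on such differences, so nothing is read from the counts. The median difference was -1.75, against 0.001 over all genes. On every one of the 4 arrays, 2 of which carried RL24, the restricted channel was the lower for 8 genes, and for COL12A1 on 2 of 4. Both diets were on the same slide at each time, but each time was on a slide of its own, so time and slide cannot be told apart.

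**Figure D2:**
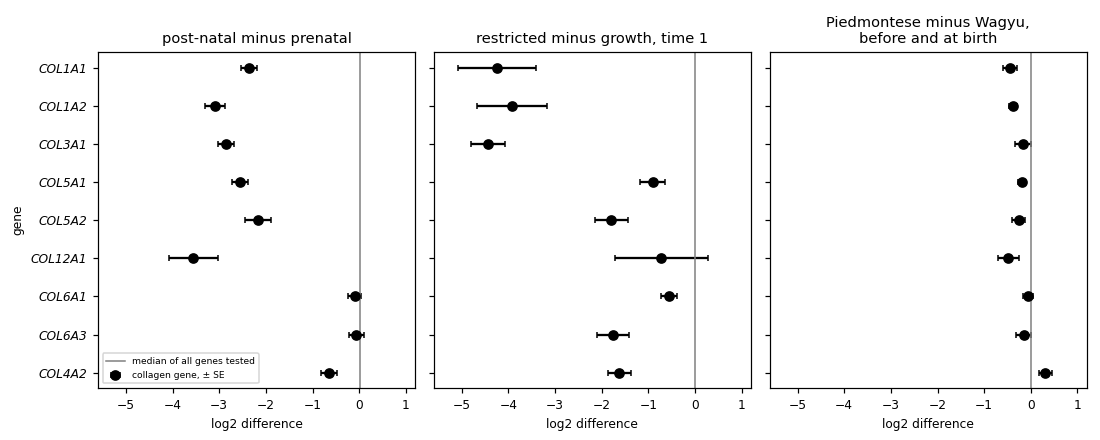
Log2 differences with their standard errors for the 9 measured collagens, from prenatal to post-natal animals, between restricted and growth animals at diet time 1, and between the crosses before and at birth. The vertical line is the median of all genes tested, and COL3A1 lies at -2.85, -4.44 and -0.16 in the 3 panels.

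At time 0 no collagen was past the threshold, and 1.10% of all genes were. All 9 had a lower mean in restricted animals (median difference -0.18). COL1A1 differed by -1.19 (SE 1.01), COL12A1 by -0.93 (SE 0.99) and COL1A2 by -0.90 (SE 1.10). The animals of the diets overlapped for every gene, where 4.98% of all genes were lower without overlap. With 1 animal left out, COL3A1, COL5A1, COL5A2 and COL6A3 could turn to a positive difference. COL1A1 was 16.22, 14.13, 16.26 and 14.46 in the growth animals and 13.18, 16.30, 11.55 and 15.26 in the restricted animals RL24, RL27, RL322 and RL671. The animals thus differed by up to 4.75 within this time, a range larger than that of 99.9% of all genes, and COL1A2 ranged over 4.80 and COL12A1 over 4.09. The ranges of COL4A2 and COL6A1 were 0.78 and 0.88. Over these 8 animals COL12A1 correlated with COL1A2 (r = 0.96) and COL1A1 (r = 0.94), while over the 7 animals of time 1 its r with COL1A1 was 0.66 and with COL3A1 0.39. These values describe 8 and 7 animals that share slides.

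Each animal was followed from time 0 to time 1. COL3A1 was lower at time 1 in all 3 restricted animals, from 12.13 to 9.27 (RL24), 13.36 to 8.98 (RL27) and 12.45 to 10.02 (RL671). It was higher at time 1 in all 4 growth animals, from 12.74 to 14.42 (RG157), 12.16 to 13.45 (RG166), 12.60 to 13.27 (RG208) and 11.33 to 14.34 (RG604). The changes of COL3A1 differed between the diets by -4.88 (SE 0.62). COL4A2 split the animals in the same way, with a difference of -1.31 (SE 0.30), with changes of -0.77 to -0.35 in its restricted animals and 0.25 to 1.55 in its growth animals.

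COL1A1 did not divide by direction, since 3 of the 4 growth animals were also lower at time 1, RG208 with a change of -3.04. Its restricted animals changed by -6.11 to -3.79, beyond every growth animal. The difference in change was -2.04 (SE 0.49) for COL5A2 and -1.87 (SE 0.61) for COL6A3. In the fit over all genes 3 of the 9 collagens were past the threshold in the lower direction, as were 5.60% of all genes, and 5 did not overlap (13.9% of all genes). Nothing is read from these counts, for the reason given above. This comparison shares its time 1 samples with the one above.

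At time 2 the 2 restricted animals RL24 and RL27 were higher again. COL1A1 stood at 12.42 and 13.78, higher than at time 1 by 3.03 and 3.59, beside 15.71 and 14.17 in the growth animals RG166 and RG208. Those growth animals were also higher than at time 1 for COL1A1, by 2.19 and 0.95. Their COL12A1 changed by 3.73 and 1.92, more than the 0.46 and 0.94 of the restricted animals, and their COL3A1 by -2.36 and -0.30. Each time was on its own slide. COL3A1 was 11.05 and 11.44 in the restricted animals and 11.09 and 12.97 in the growth animals, so that the diets overlapped. All 9 collagens still had a lower mean in the restricted animals, with a median difference of -0.61. Of these, 6 did not overlap, where 17.4% of all genes were lower without overlap. COL6A1 differed by only -0.02 (SE 0.15) and COL4A2 by -0.13 (SE 0.24). With 1 animal left out, COL3A1, COL4A2 and COL6A1 could turn to a positive difference. The widest was COL12A1, at 9.73 and 11.26 against 13.68 and 11.73 (difference -2.21, SE 0.79). With 2 animals of each diet no gene on the array passed the adjusted threshold by limma, and 969 had an unadjusted p at or below 0.05.

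**Figure D3:**
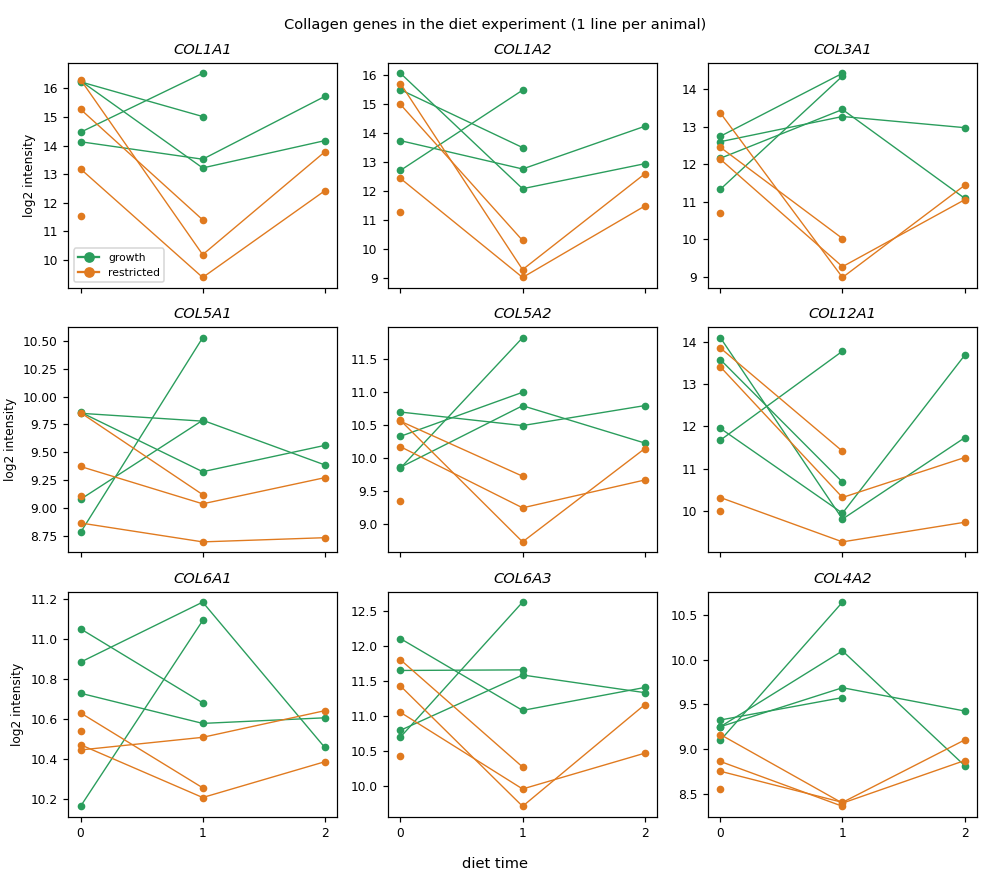
Log2 normalised intensity of the 9 measured collagens in each Belmont Red animal at diet times 0, 1 and 2, with a line joining the samples of an animal, coloured by ration. The restricted animals drop at time 1 for COL1A1 and COL3A1, where they lie between 8.98 and 11.41, and the 2 that were sampled at time 2 lie higher again. From time 1 to time 2 the growth animals RG166 and RG208 also rise for COL1A1 and fall for COL3A1.

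Genes acting on collagen were tested at time 1 in the same way, with limma and adjustment over all genes. The same limit on the choice of the lists holds. At this time 25 of the 90 list genes (27.8%) passed in either direction, against 15.1% of all genes, and 7.27% of all genes fell. Of 12 genes for extracellular processing and cross-linking 8 fell and none rose (median -1.25). Fibronectin (FN1) was 15.1-fold lower in restricted animals (log2 difference -3.91, SE 0.56, adjusted p = 0.00796). SPARC, a collagen-binding matrix protein, fell by 1.98 (SE 0.44, adjusted p = 0.0263), as did LOXL2 (-1.82, SE 0.45, adjusted p = 0.0347) and the propeptide cleavage enhancer PCOLCE (-1.70, SE 0.38, adjusted p = 0.0271).

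The intracellular genes moved less as a group, with 4 of 17 lower and 1 higher (median -0.24). SERPINH1 fell by 2.09 (SE 0.34, adjusted p = 0.011) and the prolyl hydroxylase subunit P4HA2 fell by 0.92. P4HB, the protein disulphide isomerase that is the beta subunit of the same enzyme, rose by 1.37 (SE 0.22, adjusted p = 0.0106). Of 11 basement membrane partners 6 fell, including LAMA4 (-1.62, SE 0.26, adjusted p = 0.0104), the nidogen NID2 (-1.49), PXDN (-1.46), LAMB1 (-1.44) and perlecan (HSPG2, -0.88, SE 0.12, adjusted p = 0.00695).

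Of 6 collagen receptors 2 fell, MRC2 (-1.95, adjusted p = 0.0159) and the discoidin receptor DDR2 (-0.97). Of 19 other collagens 3 fell, COL15A1, a basement membrane zone collagen (-1.47, SE 0.25, adjusted p = 0.012), COL6A2 (-0.69) and COL4A3 (-0.65), where 15.1% of all genes passed in either direction. None of 10 proteases and inhibitors passed the test (median -0.46), and of 15 TGF-beta and related genes TGFBR2 alone did (-0.87, adjusted p = 0.0296). No gene of these lists passed the test at time 0 or time 2. In the test of the change from time 0 to time 1, 8 of the 90 genes of the lists passed (8.89%), no more than the 10.9% of all genes. P4HB rose more in restricted animals (1.33), while FN1 (-4.40), COL15A1 (-1.87), LAMA4 (-1.68), LAMB1 (-1.31), DDR2 (-1.26), PDGFRB (-0.74) and COL4A3 (-0.73) had the lower change.

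Beside these results, all 7 measured myofibre markers fell at time 1, ACTA1 with a log2 difference of -6.10 (SE 0.26, adjusted p = 0.000372), and the myofibre sum was 20.0 to 21.2 in growth and 18.5 to 18.7 in restricted animals. Of the fibroblast markers 3 of 8 fell (sums 14.3 to 15.5 against 13.4 to 14.6), as did 3 of 7 endothelial, 1 of 6 smooth muscle and 1 of 5 immune markers. Of all genes, 7.27% fell at this time. None of the adipocyte, red cell or cartilage markers passed. Without RG166 and RG208, which had the highest myofibre sums, no collagen and 5 genes in all were past the threshold in the change from time 0 to time 1. Only RG157 and RG604 then remained as growth animals. The difference in change itself was larger for each collagen, at -5.01 for COL1A1 (main -3.88) and -5.56 for COL3A1 (main -4.88). The part of these markers in the collagen differences was not tested.

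Piedmontese cattle are known for heavy muscling and Wagyu cattle for marbling. Before and at birth the 9 Piedmontese-cross animals were compared with the 9 Wagyu-cross animals within each time point. None of the 9 collagens passed the test, as against 0.00682% of all genes, which is 1 gene of 14673, and 1207 genes had an unadjusted p at or below 0.05. COL1A2 was lower in Piedmontese crosses by 0.38 (SE 0.09, adjusted p = 0.301) and lower on 10 of 12 arrays. COL1A1 was lower by 0.44 (SE 0.15, adjusted p = 0.475), also on 10 of 12 arrays, and COL12A1 differed by -0.48 (SE 0.22, adjusted p = 0.605). COL5A1 differed by -0.20 (SE 0.07, adjusted p = 0.504). COL4A2 was the one gene with a positive difference, 0.31 (SE 0.14, adjusted p = 0.602), and was higher in Piedmontese crosses on 8 of 12 arrays. Without GP672 the COL12A1 difference was -0.35, the COL1A2 difference -0.40 and the COL4A2 difference 0.24, and none of the 9 passed. The 9 differences had a median of -0.20, and 5 of the 9 genes had an unadjusted p at or below 0.05, as did 8.23% of all genes, and none held up after adjustment.

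At birth alone COL1A1 was 13.08, 12.71 and 13.51 in the Piedmontese crosses and 14.29, 13.46 and 14.13 in the Wagyu crosses. COL3A1 was 12.58, 12.11 and 12.17 against 12.99, 12.66 and 12.86, and COL4A2 was 10.23, 10.55 and 10.16 against 9.57, 9.97 and 10.09. These are values of 3 animals a cross, picked after they were seen, and birth was not tested on its own. Earlier ages did not all share these directions. COL3A1 was higher in Piedmontese crosses at 60 and 135 days (mean over arrays 0.43 and 0.46) and lower at 195 days (-0.58). COL4A2 was lower in them at 60 days (-0.23) and higher at 135 and 195 days (0.13 and 0.46). After birth 5 Piedmontese-cross and 4 Wagyu-cross animals differed by -0.04 to 0.43 over the 9 genes, with an adjusted p of 1.00 for each, and no gene of the array passed by limma (789 at an unadjusted p at or below 0.05). In simulated data of the same size, a 2-fold change was called for 94% of the genes given one in the comparison before and at birth. The collagen differences there were at most 0.48 in size, below 2-fold, so this share does not tell whether they could be called. The share was 96% for the crosses after birth, 73.5%, 68.5% and 0% at diet times 0, 1 and 2, and 43.5% for the change from time 0 to 1. It need not hold for a gene with a wide spread, such as COL1A1, whose range at diet time 0 was larger than that of 99.9% of all genes.

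**Figure D4:**
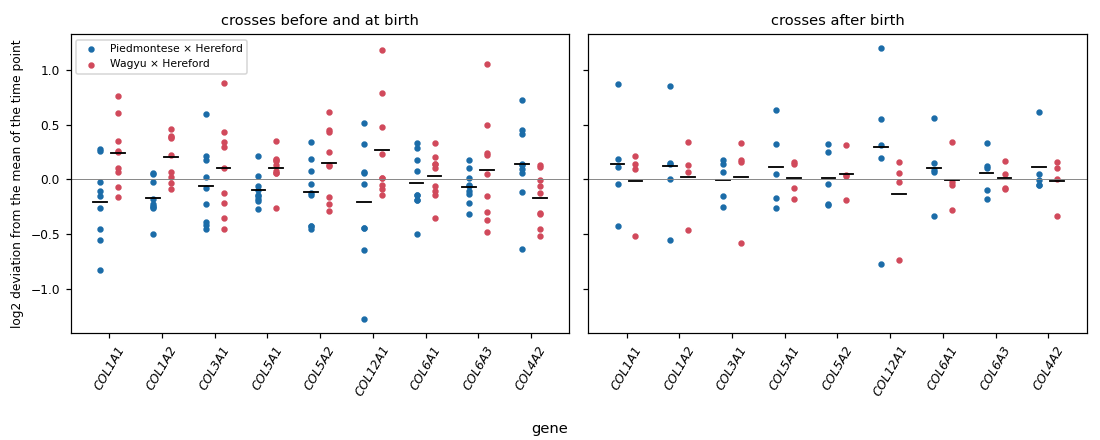
Log2 deviation of each animal from the mean of its time point for the 9 measured collagens, before and at birth and after birth, by cross, with bars at the cross means. The COL1A2 means lie 0.38 apart before and at birth with overlapping animals, and after birth the crosses lie on top of each other for most genes.

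Across the 26 conditions the 9 collagens formed 36 pairs, with Pearson's r from 0.17 to 0.97 and a median of 0.62. COL1A1 and COL1A2 were the most alike (0.97) and COL6A1 and COL12A1 the least (0.17). Taken by experiment, the 8 prenatal and birth conditions gave a median r of 0.80, with COL4A2 and COL12A1 at -0.35, the 12 post-natal conditions 0.78 and the 6 diet conditions 0.86. Among the diet conditions COL12A1 had an r of 0.84 with COL1A2 and 0.83 with COL1A1, and 0.27 to 0.64 with the other genes. The conditions share animals and slides, and these values are given as a description.

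**Figure D5:**
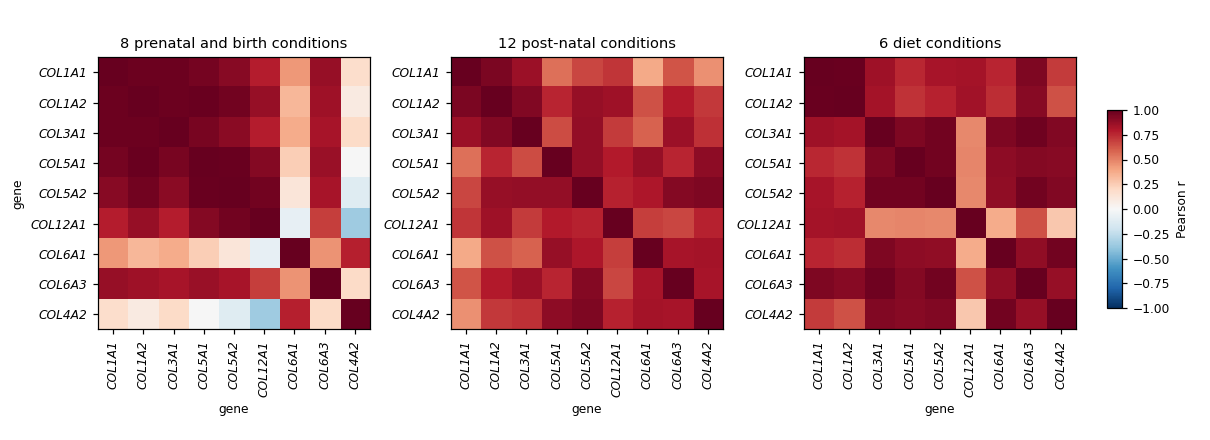
Pearson's r between the 9 measured collagens over the 8 prenatal and birth, 12 post-natal and 6 diet conditions, on a colour scale from -1 to 1. COL4A2 and COL6A1 are pale against the fibrillar genes before birth, down to -0.35 for COL4A2 with COL12A1, and among the diet conditions COL12A1 is dark with COL1A1 (0.83) and COL1A2 (0.84) and paler with the others.

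The other genes whose profile over the 26 conditions was most like the mean of the 9 collagens were SERPINH1 (r = 0.96), TAGLN2 (0.95), SPARC (0.95), SVEP1 (0.95) and TIMP1 (0.94). Of all 14673 genes 65 had an r above 0.9, where the median over all genes was -0.12. All genes here include the collagens, and COL3A1, COL1A2, COL5A2, COL1A1 and COL5A1 had an r above 0.9 with a mean they help make. SVEP1 encodes a large secreted adhesion protein, TAGLN2 an actin-binding protein and TIMP1 a metalloproteinase inhibitor. TAGLN2 differed by -1.55 from prenatal to post-natal animals and by -1.11 between diets at time 1, and SVEP1 by -0.80 and -0.70.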

How the data were processed

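LTL muscle RNA was hybridised to 48 two-colour Agilent arrays, and the authors deposited each array's spot intensity in Cy3 and Cy5 as extracted with Agilent Feature Extraction 9.5.1 (per the submitters' processing notes). Their log10 ratios were not used. Mean and background intensities were corrected by normexp with an offset of 50, normalised within arrays by loess and between arrays by quantiles of the mean intensity, in limma 3.58.1 (R 4.3.3). Control and flagged spots were left out, probes were kept when well above background in at least 24 of 96 channels, 16738 of 21475 probes were matched to a RefSeq symbol, and probes of a gene were averaged. A dye effect was removed per gene and the channels of an animal were averaged. Comparisons used limma with Benjamini-Hochberg adjustment over 14673 genes at 0.05, after a check on simulated data. Nothing says that replicates were independent beyond the animal codes. GP041A and GP041B were counted as 2 animals. The number of arrays limits the precision. The 10 collagens, the accessory lists and the markers were chosen with earlier results of these data known. Named genes are the 10 collagens, and from each list up to 4 called genes with the largest differences and those given a role. The 5 other genes most like the mean collagen profile are named too. Alternatives were the background correction, scaling, filter, dye term, the array as a block and leaving out each animal.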

Additional observations from a re-analysis of the deposited data

Results flagged for a closer look

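Of 63 groups of 4 to 10 animals examined for a value far from the others, 3 held one, and chance gives about 1 in 20. For COL5A1 before and at birth the Wagyu-cross animal GW024 lay at -0.26 from the mean of its time point, with the next animal at 0.06. For COL1A1 after birth the Wagyu-cross animal GW212 lay at -0.52, with the next at 0.10. For COL4A2 after birth the Piedmontese-cross animal GP273, which was measured at 7 months only, lay at 0.62, with the next at 0.05.

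The change from diet time 0 to time 1 ran in opposite directions in the diets for COL3A1 and COL4A2. Every restricted animal was lower and every growth animal higher at time 1, and the difference in change was -4.88 for COL3A1 and -1.31 for COL4A2. These values are a description, since the genes were chosen with diet levels known, and the fit over all genes is no independent test of them.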

How the results depend on the processing

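The direction of the collagen differences was stable where they were large. At diet time 1 all 99 values, 9 genes under 11 settings, kept their sign apart from leaving out animals (COL12A1 without RG604), and from prenatal to post-natal animals 125 of 126 did (COL6A3 was 0.01 without the 60-day animals, left out after seeing the data). COL6A1 from birth to 3 months turned to -0.07 under median centring. Where the filter asked for 1 channel, the dim COL1A2 probe entered its mean and the COL1A2 difference was -1.60 after birth and -1.94 at diet time 1. Diet time 2 is limited by its 2 animals of each diet, and COL4A1 by a probe above background in 7 of 96 channels.

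Counts of genes called moved more. Between the crosses before and at birth 1 gene passed, and 2 did with quantile scaling, 0 with median centring, 4, 6 and 5 with filters of 1, 48 and 96 channels, and 2 with GP041A and GP041B as 1 animal. At diet time 0 the 162 genes became 74 without background correction, 97 with the Feature Extraction signals, 68 with quantile scaling and 52 with median centring, and 1 accessory gene passed with the filter of 96 channels. For the change from time 0 to 1, the 1596 genes became 1019 with the Feature Extraction signals and 827 with the dye effect kept. The 3 collagens became 1 with the filter of 1 channel, and the 8 accessory genes became 4 without background correction, 3 with the Feature Extraction signals, 5 with quantile scaling, median centring or the dye effect kept, and 4 with the filter of 1 channel. Without RG166 and RG208, chosen after seeing the data, 1173 genes passed at time 1 (main 2211), and in the change 5 genes, 0 collagens and 0 accessory genes. Fewer growth animals were then left, and the collagen differences in change were larger, not smaller.

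Under median centring the median collagen difference was -1.92 after birth (main -2.36) and 0.42 from birth to 3 months (main 0.79). It moved the median of all genes to 0.12 after birth, and it split the diet time 1 calls into 1971 higher and 623 lower genes (main 1145 and 1066).

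With the array as a replicate block, which pairs the 2 channels of an array and counts repeat arrays of an animal as separate, 8 genes passed between the crosses before and at birth, 1415 after birth with 7 accessory genes, 0 at diet time 0, 4016 at time 1 with 38 accessory genes, and 474 at time 2 with 1 collagen and 9 accessory genes.

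Leaving out 1 animal at a time gave 0 to 9 genes between the crosses before and at birth, 0 to 1 after birth, 31 to 115 at diet time 0, and 786 to 2001 at time 1 with 2 to 7 collagens and 7 to 24 accessory genes. In the change it gave 489 to 1138 genes, 1 to 4 collagens and 1 to 9 accessory genes. At time 1, 2 collagens were past the threshold without RL27 (main 6), and in the change 1 was without RG166, RL24, RL27 or RL671 and 2 without RG157 (main 3). Counts of collagens describe the fit and are no independent test of genes chosen on these differences.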
